A study of Mus musculus with 18 samples.

Results

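Chemokines are small secreted or membrane-anchored proteins that direct the movement of leukocytes, and they were examined here together with the receptors that read them, in sorted brush cells, epithelial cells and leukocytes of the mouse trachea. The members were chosen by name alone: 61 of the 26327 genes in the count table had a symbol of the chemokine ligand families (Ccl, Cxcl, Cx3cl1 and Xcl1), of the conventional receptors (Ccr, Cxcr, Cx3cr1 and Xcr1) or of the atypical receptors (Ackr). Of these, 39 had ligand symbols and 22 had receptor symbols. The filter on low counts asked for a level of about 2.43 CPM (read counts scaled to the size of each library) in at least 4 libraries, and 42 members passed it (26 ligands and 16 receptors). Of those 42, 27 passed only through the leukocyte libraries, 6 only through the EpCAM libraries and 1 only through the brush libraries. That is, they fell short of 4 libraries without that group. The 8 others passed through more than 1 group. Passing through a single group largely fixes which group is higher, so the counts below are read with that in mind. Ccl27a is an exception, as it reached the level in only 3 EpCAM libraries. The other 19 members are described at the end by their counts.

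RNA was sequenced from 18 libraries of sorted tracheal cells of naive mice. Every group came from the ChAT-eGFP reporter strain, in which a transgene carrying the choline acetyltransferase (ChAT) locus drives green fluorescent protein (eGFP), so the comparison groups carried the transgene too. No other strain or treatment was part of the comparison. The 7 brush libraries held cells sorted as negative for CD45 and positive for EpCAM and eGFP. The 7 EpCAM libraries held cells sorted as negative for CD45 and positive for EpCAM, a gate that as worded does not exclude eGFP-positive cells, and the 4 CD45 libraries held cells sorted by the leukocyte antigen CD45. The labels give no ages and do not say whether each library is a different mouse. The p-values thus measure the spread between these libraries, which may be technical.

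Totals ran from 838328 to 6031711 counts in the brush libraries, from 2442601 to 6087184 in the EpCAM libraries and from 371652 to 7438791 in the CD45 libraries. Brush library 4, EpCAM library 5 and CD45 library 1 stood apart. Their median rank correlations to the other libraries of their group were 0.849, 0.81 and 0.759. Most calls that change without a library are given with the gene. The labelled cell types were checked against marker lists. The summed level of 10 brush cell markers was 9780 to 11800 CPM in the brush libraries, 8.36 to 35.7 in the EpCAM libraries and 86.2 to 230 in the CD45 libraries, and that of 12 pan-leukocyte genes was 23.1 to 54.7, 2.16 to 7.82 and 8480 to 10800 CPM. Club and goblet markers summed to 23400 to 121000 CPM in the EpCAM libraries and to 196 to 2960 CPM in the brush libraries. All levels are of bulk RNA, in which fewer cells of a type and less RNA per cell cannot be told apart.

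Chemokine ligands are grouped by the spacing of their first cysteines into the CC, CXC, CX3C and XC families. Conventional receptors are G protein-coupled and start migration, whereas the atypical receptors ACKR1 to ACKR4 bind ligands without starting it and mostly remove them. In the airway, epithelial chemokines such as CCL20, CXCL5 and CXCL17 recruit dendritic cells, lymphocytes, neutrophils and macrophages. Brush cells, known as tuft cells in the intestine, are rare chemosensory epithelial cells.

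Brush cells carried few chemokine transcripts, and the most abundant member in them was an atypical receptor. The summed level of all ligands was 43.1 to 128 CPM in the brush libraries (median 60.4), 231 to 741 CPM in the EpCAM libraries (median 328) and 2010 to 8280 CPM in the CD45 libraries (median 5680), with no overlap between any pair of groups. The summed level of all receptors was 67.8 to 132 CPM in the brush libraries and 23.4 to 117 CPM in the EpCAM libraries, which overlapped, and 520 to 3280 CPM in the CD45 libraries. Only 4 members reached a mean of 10 CPM in brush cells (Ackr4, Cxcl12, Ackr3 and Cx3cl1), against 7 in EpCAM cells and 32 in CD45 cells.

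**Figure D1:**
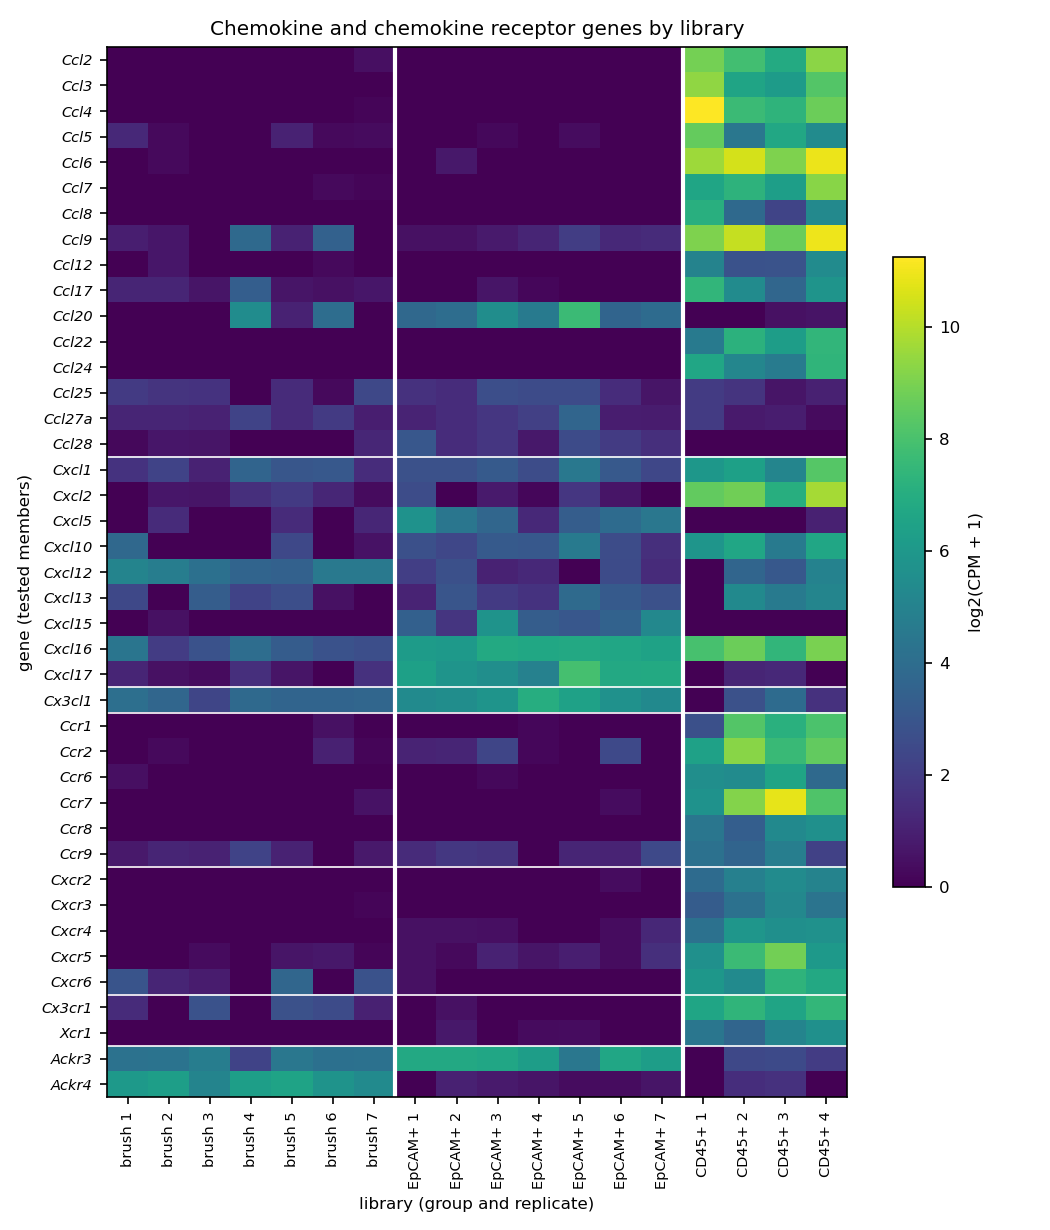
Level of the tested members, other than 1 not reported here, in each of the 18 libraries as log2(CPM + 1), with ligands above and receptors below and white lines between families and groups. Most genes are near 0 in the 14 epithelial libraries and bright in the 4 CD45+ libraries, Ackr4 is bright in the 7 brush libraries, and Cxcl17, Cxcl16, Ccl20, Cx3cl1 and Ackr3 are bright in the EpCAM+ libraries.

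The first comparison, brush against EpCAM cells, asks which chemokine genes set brush cells apart from the rest of the epithelium. Ackr4, Cxcr6, Cx3cr1, Cxcl12 and Ccl17 were higher in brush cells, and Cxcl15, Cxcl17, Cxcl5, Cxcr4, Cxcl16, Ccl20, Xcr1, Ccr2, Ccl28, Cx3cl1 and Ackr3 were lower. These 5 higher and 11 lower calls, out of 42, rest on edgeR's quasi-likelihood test with a threshold of 0.05 on the p adjusted by Benjamini and Hochberg across the 13418 genes tested. The share called was 38.1%, beside 40.3% of all genes tested, of which 18.3% were higher and 22.0% lower. The median log2 fold change was -0.54 over the tested members and -0.06 over all genes. The groups did not overlap for 6 of the 42 members (14.3%), beside 20.3% of all genes tested, so both shares lay at or below those of all genes.

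Among the CC ligands, 1 of 16 tested was higher in brush cells (Ccl17) and 2 were lower (Ccl20 and Ccl28). Among the CXC ligands, 1 of 9 was higher (Cxcl12) and 4 were lower (Cxcl5, Cxcl15, Cxcl16 and Cxcl17). Of the conventional receptors, 2 were higher (Cxcr6 and Cx3cr1) and 3 were lower (Ccr2, Cxcr4 and Xcr1), while the atypical receptors Ackr3 and Ackr4 went in opposite directions. The fold changes of the 16 called members are plotted with their errors.

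**Figure D2:**
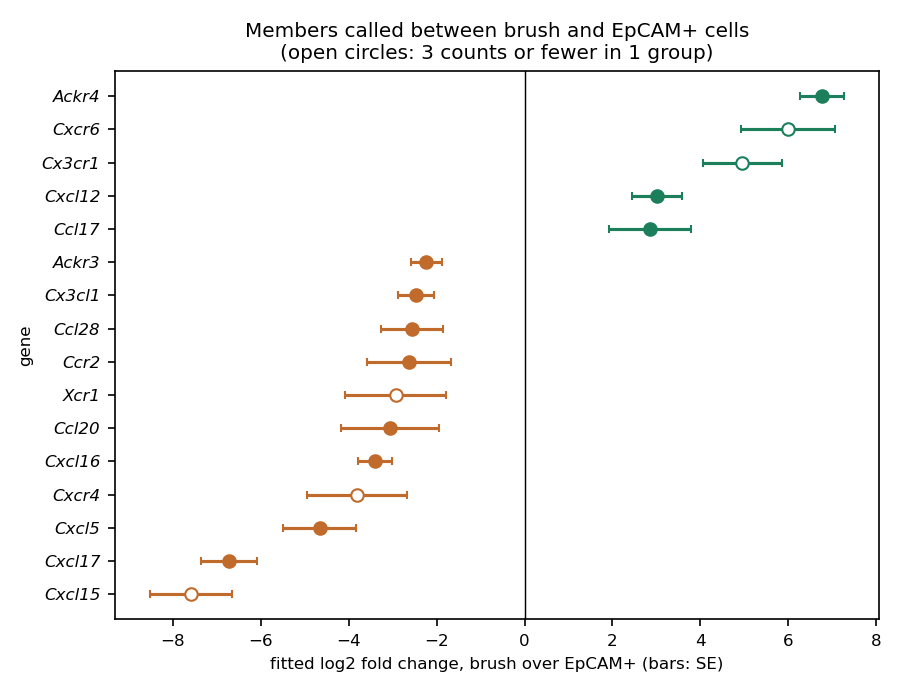
Fitted log2 fold change of brush over EpCAM+ cells for the 16 called members, with bars for the standard error, and open circles where 1 group holds 3 counts or fewer, whose fitted fold change depends on the prior count and is no bound. Ackr4 lies at 6.77 and Cxcl17 at -6.72, and the 11 lower members span -2.23 (Ackr3) to -7.58 (Cxcl15).

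Cxcl12 was the chemokine ligand that was higher in brush than in EpCAM cells by the clearest margin. It encodes the ligand of CXCR4 and of ACKR3, known for holding progenitors and lymphocytes in bone marrow and tissue. Its level in the brush libraries was 10.3 CPM at the lowest, 22.4 at the median and 32.4 at the highest, and in the EpCAM libraries 0, 1.62 and 5.74. Every brush library was above every EpCAM library. The log2 fold change was 3.01 ± 0.56 (SE), with an adjusted p of 0.000128 (edgeR). The 4 CD45 libraries held 0, 11.7, 7.67 and 30.5 CPM, overlapping the brush libraries (log2 fold change 0.58 ± 0.61, adjusted p = 0.465). Without CD45 library 4 the CD45 mean fell from 12.5 to 6.46 CPM and that log2 fold change was 1.39 (adjusted p = 0.112). The promoter, the 250 bases before the start site on the plus strand, is shown because Cxcl12 is the only one of the 26 tested ligands whose mean was largest in brush cells. It lies at chr6:117168285-117168534 in GRCm38.p6 (RefSeq) and held no match to the NF-kappaB consensus or to the octamer ATGCAAAT on either strand.
Cxcl12: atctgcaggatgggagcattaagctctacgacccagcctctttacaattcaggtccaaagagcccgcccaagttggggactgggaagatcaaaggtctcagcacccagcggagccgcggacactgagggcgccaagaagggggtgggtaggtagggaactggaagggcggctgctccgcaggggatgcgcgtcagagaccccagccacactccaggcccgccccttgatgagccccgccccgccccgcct

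Fibroblasts and endothelial cells are known sources of CXCL12, and their markers were read beside it. Of the 9 fibroblast and muscle markers, 8 were detected in the brush libraries, and they summed to 9.61 to 26.4 CPM there and to 254 to 521 CPM in the EpCAM libraries. Nearly all of the EpCAM sum was Dcn, at 5.59 ± 4.47 CPM (SD, n = 7) in brush cells and 367 ± 96.3 in EpCAM cells. Pdgfra was higher in every brush than in every EpCAM library, at 7.52 ± 4.45 and 0.0853 ± 0.146 CPM, Acta2 was at 1.37 and 1.01, Col1a1 at 0.664 and 0.429, and Lum at 0 and 0.0881. The members of the list thus differed in direction, and their part in the level of Cxcl12 was not tested. Of the 7 endothelial markers, 5 were detected in brush cells, and they summed to 26.4 to 103 CPM there and to 0.401 to 5.24 CPM in the EpCAM libraries. Nearly all of that sum was Tek, a receptor tyrosine kinase, at 55.7 ± 27.5 CPM in brush cells, while Cdh5 and Cldn5 were at 0 and Kdr and Emcn had 1 count each.

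Ccl17, a ligand of the receptor CCR4 on type 2 helper T cells, was detected in all 7 brush libraries at a low level. It passed the filter only through the CD45 libraries. In a fit of only the brush and EpCAM libraries it did not pass the filter and was not tested. The brush libraries held 0.427 CPM at the lowest, 0.595 at the median and 9.43 at the highest, from 28 counts in all, and the EpCAM libraries held 0 to 0.557 CPM from 4 counts. The ranges overlapped, and the log2 fold change was 2.85 ± 0.94 (edgeR adjusted p = 0.0186). The brush mean was 2.00 CPM with brush library 4 and 0.765 without it, and the log2 fold change was 4.05 without EpCAM library 3 (adjusted p = 0.0059). Ccl17 was far higher in the CD45 libraries, at 167, 42.4, 12.3 and 55.4 CPM.

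The 4 most abundant ligands of the EpCAM libraries were all lower in brush cells. They were picked by their EpCAM level, so this is a description. Cxcl17, Ccl20, Cxcl15, Cxcl5 and Ccl28 passed the filter only through the EpCAM libraries, which largely fixes their lower level in brush cells. By the TPM values of RSEM, which correct for transcript length and so allow levels of different genes to be set side by side, Cxcl17 held 41.3% of the summed ligand level in EpCAM cells (144 ± 51.6 TPM, SD, n = 7). It was followed by Cxcl16 (55.2 TPM), Ccl20 (51.9), Cx3cl1 (23.1) and Ccl27a (21.3). In brush cells the leading ligands were Ccl27a (15.9 TPM), Cxcl12 (15) and Ccl20 (12.4), whose standard deviations (5.29, 8.75 and 20.5 TPM) exceed the gaps between them. Ccl27a has a near-identical copy, Ccl27b, and its reads could be split differently by the counting methods: its level in the count table was only 1.81 CPM in brush cells and 3.15 in EpCAM cells, and its level is uncertain.

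Cxcl17 encodes a mucosal chemokine that attracts myeloid cells. The brush libraries held 0, 0.544 and 2.02 CPM (lowest, median and highest), and the EpCAM libraries held 30.0, 83.4 and 241. The groups were far apart with no overlap, and the log2 fold change was -6.72 ± 0.64 (edgeR adjusted p = 1.37e-08; -7.37 without brush library 7). The 4 CD45 libraries, at 0, 1.25, 1.42 and 0 CPM, were as low as the brush libraries (log2 fold change of brush over CD45 -0.06 ± 0.81).

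Cxcl15, known as lungkine, is a neutrophil attractant of the airway epithelium. It had 2 counts over the 7 brush libraries, 0 over the CD45 libraries and 589 over the EpCAM libraries, where it ran from 2.34 to 53.3 CPM. EpCAM cells were 287-fold higher than brush cells, with a 95% counting interval of 79.0 to 2370 that covers counting error only (edgeR adjusted p = 1.55e-06), and at least 112-fold higher than CD45 cells, taking 3 counts over the group as the limit that 0 counts allow. Cxcl5, another neutrophil attractant, was at 0 CPM in 4 brush libraries and at most 1.63, and at 1.48 to 52.5 CPM in the EpCAM libraries (median 14.1). Its ranges touched only at the lowest EpCAM library, and its log2 fold change was -4.65 ± 0.83 (edgeR adjusted p = 8.03e-05). In a fit of only the brush and EpCAM libraries Cxcl5 did not pass the filter and was not tested.

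Cxcl16 and Cx3cl1 encode the membrane-anchored chemokines, which are shed by proteases and serve as ligands of CXCR6 and CX3CR1. Cxcl16 ran from 3.04 to 19.6 CPM in the brush libraries (median 6.23) and from 64.4 to 112 in the EpCAM libraries (median 99.5), a log2 fold change of -3.40 ± 0.38 (edgeR adjusted p = 1.79e-07). The CD45 libraries were higher again, at 250, 419, 166 and 505 CPM, so the 3 groups formed separate steps with brush cells at the bottom. The gene shares 552 of its 3021 exon bases with Zmynd15 on the opposite strand, which was at 0 CPM in brush cells, 0.605 in EpCAM cells and 46.5 in CD45 cells; without a stated strand setting, reads from the shared bases cannot be told apart. Cx3cl1 ran from 4.06 to 16.5 CPM in the brush libraries (median 12) and from 39.9 to 127 in the EpCAM libraries (median 49.9). No library of the groups overlapped, and the log2 fold change was -2.47 ± 0.41 (adjusted p = 3.46e-05).

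Ccl20, the ligand of CCR6 that draws dendritic cells and lymphocytes to epithelium, depended on single libraries. It had 0 counts in 4 brush libraries, while brush libraries 4 and 6 held 43.4 and 15.4 CPM and library 5 held 1.09. The EpCAM libraries held 11.5 CPM at the lowest, 15.1 at the median and 202 at the highest, in EpCAM library 5. The groups overlapped, and the log2 fold change was -3.06 ± 1.11 (edgeR adjusted p = 0.0305). The call was lost without EpCAM library 5 (log2 fold change -1.86, adjusted p = 0.151), without brush library 2, 3 or 5 (adjusted p = 0.0502, 0.0507 and 0.0607) and with DESeq2 (0.174). The difference was larger without brush library 4 (-4.14, adjusted p = 0.00362) or 6 (-4.17, adjusted p = 0.0165). Group means moved from 46.5 to 20.5 CPM without EpCAM library 5 and from 8.54 to 2.74 CPM without brush library 4.

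Ccl28, a ligand of CCR10 and CCR3 made by mucosal epithelium, was low throughout, at 0 to 1.31 CPM in brush cells and 0.674 to 7.22 in EpCAM cells. It was lower in brush cells by a log2 fold change of -2.56 ± 0.71 (edgeR adjusted p = 0.00667), with overlapping ranges, and by -3.34 (adjusted p = 0.00234) without brush library 7, which held 11 of its 17 brush counts. It no longer passed the filter without EpCAM library 1, 3, 5 or 6. Cxcl10, an interferon-induced ligand of CXCR3, was not called (log2 fold change -1.49 ± 0.81, adjusted p = 0.149). It was at 0 CPM in 4 brush libraries and at 13.1 CPM in brush library 1, and without that library its log2 fold change was -3.76 (adjusted p = 0.00126). Cxcl1, a neutrophil attractant, was at 1.08 to 11.3 CPM in brush cells and 4.31 to 21.6 in EpCAM cells (log2 fold change -0.98 ± 0.55, adjusted p = 0.162), and Cxcl13, the B cell attractant, was at 0 to 8.94 and 1.2 to 13.6 CPM (-0.91 ± 0.79, adjusted p = 0.381).

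**Figure D3:**
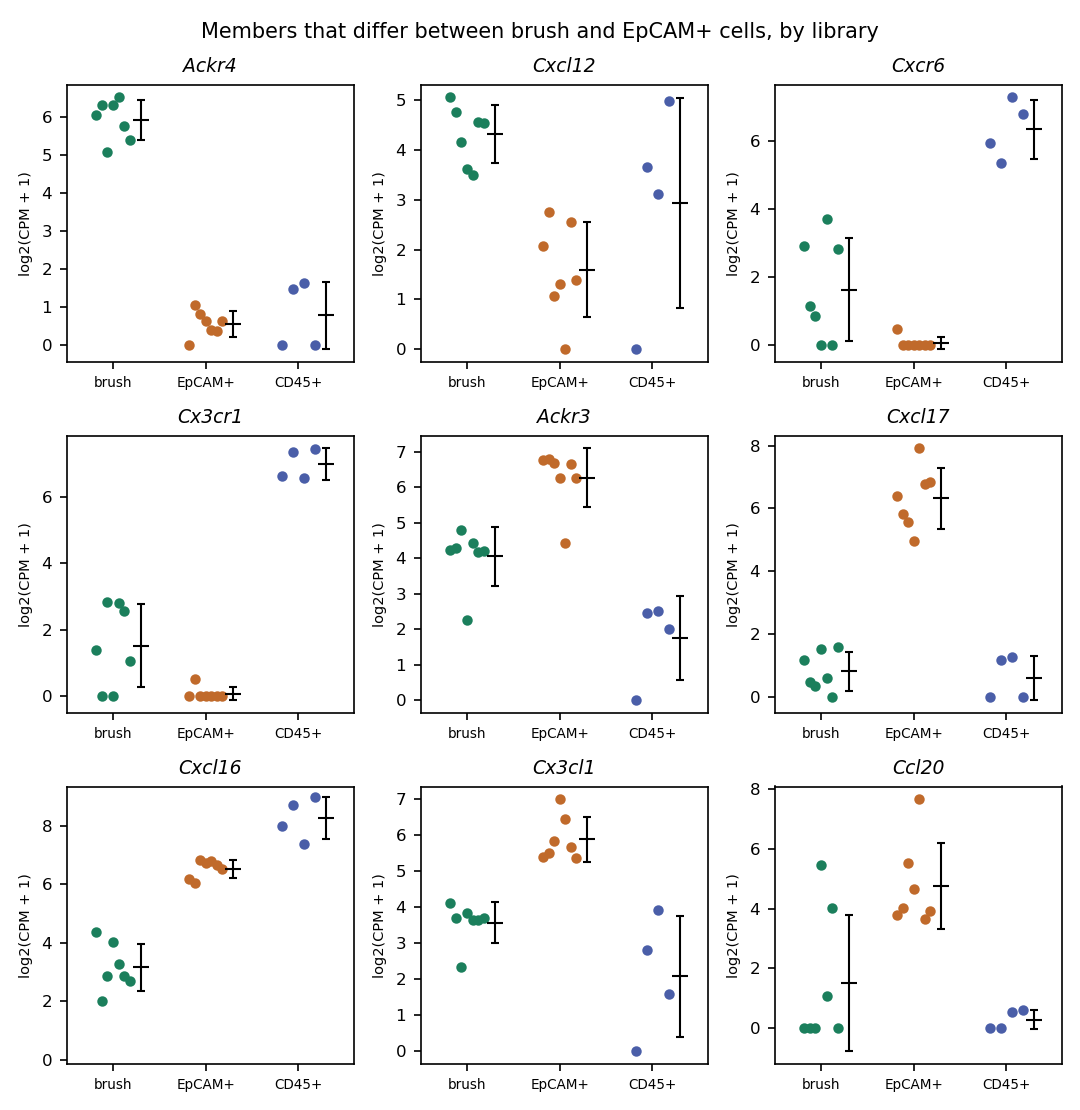
Level of 9 members in each library as log2(CPM + 1), with a point for each of the 7 brush, 7 EpCAM+ and 4 CD45+ libraries and a black mark and bar for the mean and SD on that scale. Ackr4 and Cxcl12 are higher in every brush than in every EpCAM+ library, Cxcl17, Cxcl16 and Cx3cl1 are lower in every brush library, and Ackr3, Ccl20, Cxcr6 and Cx3cr1 have overlapping libraries.

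Ackr4 was the leading receptor transcript of brush cells. It encodes an atypical receptor that takes up CCL19, CCL21 and CCL25 and is known from lymphatic endothelium, thymic epithelium and skin. It passed the filter only through the brush libraries, which largely fixes its higher level there. In the brush libraries its level was 32.5 CPM at the lowest, 65.1 at the median and 90.9 at the highest, and in the EpCAM libraries 0, 0.539 and 1.06. The CD45 libraries held 0, 1.74, 2.08 and 0 CPM, so every brush library was above every other library of the study. The log2 fold change was 6.77 ± 0.50 over EpCAM cells and 5.55 ± 0.61 over CD45 cells, with adjusted p of 3.33e-10 and 7.57e-08 (edgeR), and the second was 6.22 without CD45 library 3. In TPM, Ackr4 held 72.4% of the summed receptor level of brush cells (34.1 ± 11.7 TPM), against 0.216 TPM in EpCAM cells.

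The Ackr4 gene lies on chr9:104084157-104126933, minus strand (GENCODE vM21, GRCm38), and shares 479 of its 5380 exon bases with Acad11, an acyl-CoA dehydrogenase gene on the opposite strand. Acad11 was at 43.9 CPM in brush cells and 26.6 in EpCAM cells (log2 fold change 0.75, edgeR adjusted p = 0.161). Its level in EpCAM cells was thus well above that of Ackr4 in the same libraries (0.497 ± 0.344 CPM). Of the ligands of ACKR4, Ccl19, Ccl21a, Ccl21b and Ccl21c had 0 counts in all 18 libraries. Ccl25 was at 1.91 ± 1.51 CPM in brush cells, 3.05 ± 2.01 in EpCAM cells and 1.67 ± 1.07 in CD45 cells, and it passed the test in no comparison (edgeR adjusted p = 0.503, 0.524 and 0.251). It shares 204 of its 7445 exon bases with Elavl1 on the opposite strand, which was at 65.6, 67.5 and 45.8 CPM in these groups. Without a stated strand setting, reads from the shared bases cannot be told apart. Ccr7, the conventional receptor for CCL19 and CCL21, had 4 counts in brush cells, 1 in EpCAM cells and 20083 in CD45 cells.

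Ackr3, the atypical receptor that takes up CXCL12 and CXCL11, was the main receptor transcript of EpCAM cells, with 93.4% of their summed receptor TPM (29.4 ± 14.5 TPM). The brush libraries held 3.77 CPM at the lowest, 17.8 at the median and 26.5 at the highest, and the EpCAM libraries 20.7, 99.8 and 110. Only EpCAM library 5, at 20.7 CPM, fell within the brush range, and the log2 fold change was -2.23 ± 0.35 (edgeR adjusted p = 1.70e-05). The CD45 libraries, at 0, 4.49, 4.71 and 3.05 CPM, were lower than brush cells (2.23 ± 0.48, adjusted p = 0.000454) and EpCAM cells (4.47 ± 0.52, adjusted p = 2.05e-07). Brush and EpCAM cells therefore differed in which atypical receptor led: Ackr4 with 72.4% and Ackr3 with 16.6% of receptor TPM in brush cells, and Ackr4 with 0.685% in EpCAM cells.

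Cxcr6 and Cx3cr1, receptors of T cells and innate lymphocytes and of monocytes and macrophages, were detected at low levels in brush cells. Both passed the filter only through the CD45 libraries. In a fit of only the brush and EpCAM libraries they did not pass the filter and were not tested. Cxcr6 had 119 counts over the brush libraries and 1 over the EpCAM libraries, a ratio of 122 with a 95% counting interval of 21.5 to 4870 (edgeR adjusted p = 7.89e-05). It was at 0 CPM in brush libraries 4 and 6, at 0.813 and 1.22 in libraries 3 and 2, and at 6.53, 6.19 and 12 in libraries 1, 7 and 5. Cx3cr1 had 75 counts in brush cells and 2 in EpCAM cells, a ratio of 38.5 (10.3 to 324, adjusted p = 0.000104). It was at 0 CPM in brush libraries 2 and 4, at 1.63 and 1.07 in libraries 1 and 7, and at 6.23, 5.99 and 4.91 in libraries 3, 5 and 6. Brush libraries that were high for Cxcr6 were not always high for Cx3cr1, and both genes were far higher in the CD45 libraries, at 40.4 to 156 CPM for Cxcr6 and 93.3 to 175 for Cx3cr1.

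Leukocyte markers also differed between brush and EpCAM libraries, and their part in the levels of Cxcr6, Cx3cr1 and Ccl17 was not tested. All 12 pan-leukocyte genes were detected in brush cells, and most of their sum was Ptprc, which encodes CD45, at 21 ± 6.82 CPM in brush cells, 0.0385 in EpCAM cells and 962 in CD45 cells. Coro1a, a leukocyte actin regulator, was at 0.799 CPM in brush cells and 1310 in CD45 cells. Cytip and Cd52 went the other way, at 0.332 and 0.034 CPM in brush cells and 3.29 and 0.745 in EpCAM cells. Cd48 had 1 count in brush cells and 1 in EpCAM cells. Of the 17 T, NK and innate lymphoid markers, 8 were detected in brush cells, summing to 17.0 to 38.5 CPM, beside 32.1 to 58.3 in EpCAM cells, and Cd3g, Cd5, Il7r, Ncr1, Klrb1c, Gzma, Nkg7, Gata3 and Il2rb were at 0. Of the 13 macrophage and dendritic cell markers in the table, 11 were detected in brush cells, summing to 55.8 to 103 CPM, beside 1890 to 4090 in EpCAM cells, where Lyz2 and Cd14 made up most of it. Csf1r was at 6.10 and C1qa at 2.35 CPM in brush cells, at 1.72 and 0 CPM in EpCAM cells, and Flt3 and Clec9a were at 0 in brush cells. The Cxcr6 gene lies inside Fyco1 on the opposite strand without shared exon bases, and Fyco1 did not pass the test (52.4 CPM in brush and 44.3 in EpCAM cells, adjusted p = 0.574).

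The receptors called lower in brush cells rested on few counts. Cxcr4, the receptor of CXCL12, had 0 counts in brush cells and 11 in EpCAM cells. The latter were 3.57-fold higher with 0 taken as 3 counts (edgeR adjusted p = 0.0121, and 0.18 with limma voom). Xcr1, the receptor of cross-presenting dendritic cells, had 0 and 6 counts (1.95-fold in the same way, edgeR adjusted p = 0.0499). These 2 values leave out the counting error of the few EpCAM counts. The adjusted p of Xcr1 was between 0.0509 and 0.114 without any 1 of the 7 brush libraries. That range also covers the runs without EpCAM library 2, 4 or 5, or CD45 library 1 or 3. Ccr2, the monocyte receptor, had 7 and 48 counts and a log2 fold change of -2.62 ± 0.95 (adjusted p = 0.0314). Its call was lost without brush library 1, 2, 3 or 7 (adjusted p = 0.0624, 0.0526, 0.0576 and 0.0679), without EpCAM library 3 or 6 (0.0962 and 0.0824) and with limma voom (0.275), and the log2 fold change was -3.91 (adjusted p = 0.0081) without brush library 6. Of the other conventional receptors tested, Ccr1, Ccr6, Ccr7, Cxcr2, Cxcr3 and Cxcr5 held 0 to 23 counts in each epithelial group. They did not pass the test between these groups. Without brush library 6, Cxcr5 was called lower in brush cells (log2 fold change -2.36, edgeR adjusted p = 0.0495). Cxcr5 shares 110 of its 3332 exon bases with Bcl9l on the opposite strand, at 6.55 CPM in brush and 11.4 in EpCAM cells. Reads from the shared bases cannot be told apart, and the mean RSEM level of Cxcr5 was 0 TPM in brush and 0.0271 in EpCAM cells.

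Several ligands and their receptors differed in opposite directions between the sorted groups. Cxcl16 and Cx3cl1 were higher in EpCAM cells than in brush cells, while Cxcr6 and Cx3cr1 were higher in brush cells than in EpCAM cells. As given above, both receptors passed the filter only through the CD45 libraries. For Cxcl12, higher in brush cells, the conventional receptor Cxcr4 had 0 counts in brush cells, 11 in EpCAM cells and 871 in CD45 cells, while the atypical receptor Ackr3 was higher in EpCAM cells. Ccr6, the receptor of CCL20, had 2 counts in brush cells, 1 in EpCAM cells and 1087 in CD45 cells. These are transcript levels of sorted cells, and contact between the cells was not measured.

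**Figure D4:**
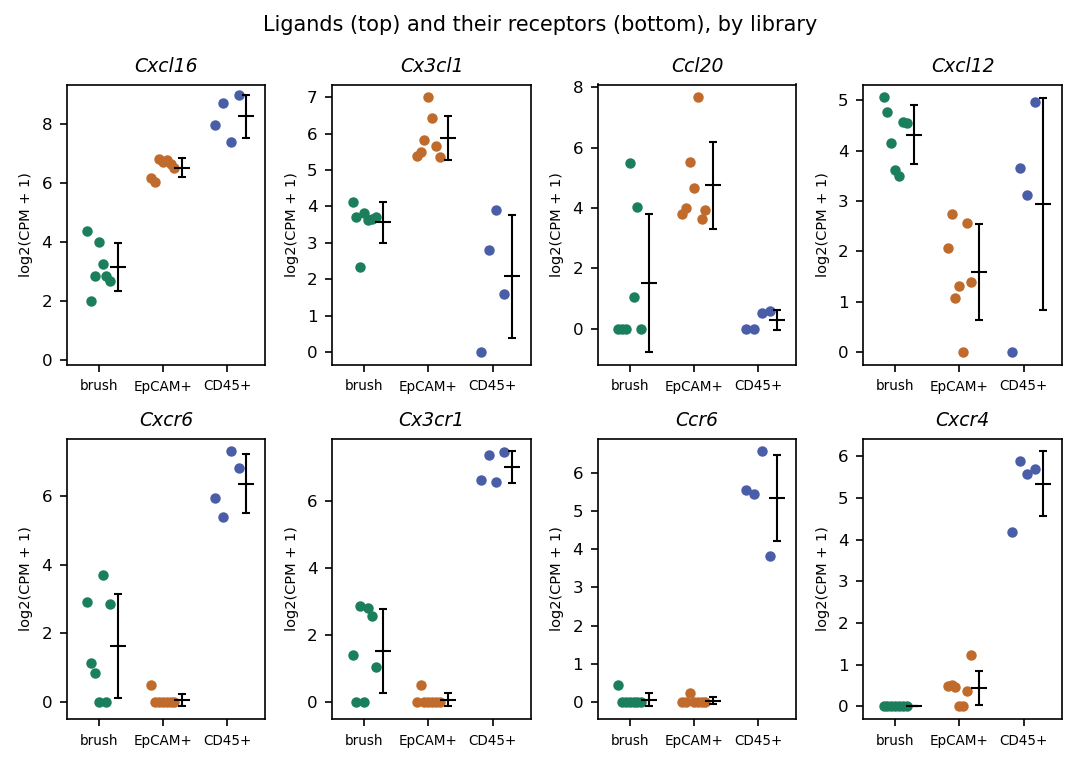
Levels of 4 ligands (top) and of the conventional receptor of each (bottom) as log2(CPM + 1), with a point per library and a black mark and bar for the mean and SD on that scale. All 4 receptors are highest in the CD45+ libraries, Cxcr6 and Cx3cr1 are also detected in brush libraries, and Cxcr4 has 0 counts in all 7 brush libraries.

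The second comparison, brush against CD45 cells, places brush cells beside tracheal leukocytes, and the third does so for EpCAM cells. They share the CD45 libraries, so they are not independent of each other. Of the 42 tested members, 3 were higher and 31 lower in brush than in CD45 cells (81.0%, beside 45.8% of all genes tested, 23.4% higher and 22.4% lower), and the median log2 fold change was -8.21, beside 0.05 (-7.68 with the 16 members at 3 counts or fewer in a group set to their limit or ratio). In EpCAM against CD45 cells 7 were higher and 32 lower (92.9%, beside 40.5% of all genes, 22.5% higher and 18.1% lower), with a median of -8.30 beside 0.08 (-7.61 with 20 such members). The groups did not overlap for 71.4% and 83.3% of the members, beside 30.5% and 27.2% of all genes. Since 27 members passed the filter only through the CD45 libraries, these shares and medians are descriptions that support nothing further.

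Among CD45 cells the leading ligands by TPM were Ccl6 (1240 ± 682 TPM, SD, n = 4), a myeloid chemokine, and Ccl4 (1120 ± 1160 TPM), an inflammatory CC ligand. Ccl6 was at 770, 1450, 537 and 1960 CPM in the 4 CD45 libraries, with 1 count in brush cells and 3 in EpCAM cells. Ccl4 was at 2430, 204, 159 and 423 CPM, and its mean of 803 CPM was 262 CPM without CD45 library 1. Ccl3, Ccl5 and Ccl8 were also highest in that library, at 664, 382 and 135 CPM beside 71.2 to 297, 20.7 to 107 and 3.94 to 38.1 CPM in the other 3. Cxcl2 (474 TPM), Ccl2 (461), Ccl9 (380), Ccl5 (363), Ccl7 (334) and Ccl3 (327) followed, with standard deviations of 227 to 353 TPM that are larger than the gaps between them.

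Several ligands of CD45 cells were at or near 0 in brush cells. Ccl22, Ccl24, Ccl3 and Ccl8 and the receptor Ccr8 had 0 counts in all 14 epithelial libraries, and CD45 cells were at least 1110-fold, 595-fold, 1370-fold, 162-fold and 339-fold higher than brush cells. Ccl2, the monocyte attractant and main ligand of CCR2, had 3 counts in brush cells and 4614 in CD45 cells, a ratio of 2610 (893 to 12700). Ccl7, a further ligand of CCR2, had 2 and 3713 counts, a ratio of 3150 (872 to 26000), and its CD45 mean of 232 CPM was 110 without CD45 library 4. Ccl12 had 4 counts in brush cells, 0 in EpCAM cells and 257 in CD45 cells. Other ligands of CD45 cells were above 0 in brush cells: Cxcl16 and Cxcl1 in all 7 libraries, and Ccl17, Cxcl10 and Cxcl13 at up to 9.43, 13.1 and 8.94 CPM, as given above. Ccl9 was at 13.2 and 10.2 CPM in brush libraries 4 and 6 and 0 to 1.09 in the others, beside 534, 1210, 409 and 2000 CPM in the CD45 libraries (log2 fold change of brush over CD45 -8.55 ± 0.96, edgeR adjusted p = 1.16e-07; -9.94 without brush library 6). Ccl5 was at 0 to 1.45 CPM in the brush libraries, from 14 counts, and had 2 counts in EpCAM cells (ratio 7.19, 1.65 to 65.2). That difference was not called (adjusted p = 0.105), but it was called without CD45 library 1 (0.0438).

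The leading receptors of CD45 cells were Ccr7, which guides lymphocytes and dendritic cells to lymph nodes (388 ± 511 TPM), Ccr2 (92.1 TPM) and the B cell follicle receptor Cxcr5 (75.2 TPM). Ccr7 was at 51.7, 565, 1830 and 279 CPM in the 4 CD45 libraries, and its mean of 681 CPM was 298 without CD45 library 3. Cxcr5 was at 48.8, 202, 459 and 64.0 CPM, high in the same library, and its mean of 194 CPM was 105 without it. All 14 tested conventional receptors were lower in brush than in CD45 cells and in EpCAM than in CD45 cells, by edgeR's test. All of them passed the filter only through the CD45 libraries, which largely fixes this direction. Over all genes tested, 22.4% and 18.1% were lower in these comparisons. The inflammatory receptor Ccr1 was lowest in CD45 library 1, at 5.75 CPM beside 138 to 305 CPM in the other 3. Ccr6, Cxcr2, Cxcr3 and Xcr1 had 482 to 1087 counts in CD45 cells and at most 6 in either epithelial group.

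The members higher in brush than in CD45 cells were Ackr4 and Ackr3, described above, and Ccl28. Ccl28 had 17 counts in brush cells and 0 in CD45 cells (3.34-fold with 0 taken as 3 counts, edgeR adjusted p = 0.0239). The call of Ccl28 was lost without brush library 7 (0.0619) or CD45 library 3 (0.0881). Those higher in EpCAM than in CD45 cells were Cxcl15 and Ccl28 (at least 112-fold and 14.7-fold), Ccl20 (log2 fold change 7.01 ± 1.87; 5.85 without EpCAM library 5), Cxcl17 (6.65 ± 0.83; 7.36 without CD45 library 3), Cxcl5 (5.99 ± 1.24; 9.32 without CD45 library 4, which held its 4 CD45 counts, and 5.25 without CD45 library 3), Ackr3 and Cx3cl1 (3.22 ± 0.54; 4.21 without CD45 library 3). Cxcl15, Ccl28, Ccl20, Cxcl17 and Cxcl5 passed the filter only through the EpCAM libraries, which largely fixes their higher level there. These 7 were picked as called higher, and for none of them did an EpCAM library overlap a CD45 library. Over all genes tested, 27.2% had no overlap in either direction. Cxcl12 was lower in EpCAM than in CD45 cells (-2.43 ± 0.61, edgeR adjusted p = 0.00233), and that call was lost without CD45 library 4 (-1.62, adjusted p = 0.0533). Cxcl13 was lower too (-2.16 ± 0.82, adjusted p = 0.0378), with an adjusted p of 0.0525 to 0.117 without any 1 of brush library 1, EpCAM libraries 1, 3, 4 and 7 and CD45 libraries 2, 3 and 4.

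Chemokine genes lie in clusters, and neighbours did not share a pattern in every cluster. On chromosome 5, 5 CXC ligand genes lie within 146.6 kb (chr5:90759360-90905938, GENCODE vM21). Cxcl5 and Cxcl15 had their highest mean in EpCAM cells, and Cxcl3, which lies between them, and Cxcl1 and Cxcl2 had theirs in CD45 cells. Cxcl1 was at 60.3, 83.3, 33.5 and 314 CPM and Cxcl2 at 368, 451, 130 and 856 CPM in the CD45 libraries. On chromosome 8, Cx3cl1 (highest in EpCAM cells) lies between Ccl22 and Ccl17 (highest in CD45 cells) within 66.4 kb. On chromosome 11, the 11 CC ligand genes in stretches of 270.1 kb (Ccl2, Ccl7, Ccl11, Ccl12, Ccl8 and Ccl1) and 138.9 kb (Ccl5, Ccl9, Ccl6, Ccl3 and Ccl4) all had their highest mean in CD45 cells.

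Promoters of 45 of the 61 members were found in the RefSeq table (GRCm38.p6), in 52 windows of 250 bases. The binding consensus of NF-kappaB, the factor through which many inflammatory signals induce chemokines, was found on either strand in 11 of the 52 windows (21.2%), beside 7.25% of 32851 windows of all genes. The octamer ATGCAAAT, searched on both strands, was in 1 window (1.92%), beside 1.60%. The stretches around the consensus in Cxcl1, Cxcl2 and Cxcl3 are shown because these 3 neighbours on chromosome 5 carry the same 11 bases, and that of Ccl20 as an example from an inducible ligand found in epithelial cells. Cxcl1 and Cxcl10 were detected there too, and the matches of Cxcl10 are not printed. Capitals mark the bases of the match, with 10 bases on either side, and all are on the plus strand of GRCm38.p6. Cxcl1 is at chr5:90891164-90891194, Cxcl2 at chr5:90903792-90903822, Cxcl3 at chr5:90786018-90786048 and Ccl20 at chr1:83116676-83116705.
Cxcl1: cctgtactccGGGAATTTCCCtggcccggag
Cxcl2: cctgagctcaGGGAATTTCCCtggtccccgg
Cxcl3: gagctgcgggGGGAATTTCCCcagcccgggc
Ccl20: aatcaatgggGGAAAACCCCgggtgagaac

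The printed stretches lie between 107 and 51 bases before the start site, and in Cxcl1, Cxcl2 and Cxcl3 the capitals join overlapping matches, 1 on each strand. A match describes the letters, and binding was not measured. Members with no entry included Ccl2, Ccl4, Ccl5, Ccl7, Ccl11, Ccl21c, Ccl24, Ccl26, Ccr7, Ccr10, Cxcl5, Cxcl11, Cxcl16, Cxcl17 and Cxcr5.

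Genes that act with chemokines were counted from 5 lists, beside 18.3% of all genes tested higher and 22.0% lower (40.3% in all) in brush than in EpCAM cells, with a median log2 fold change of -0.06. Of 36 tested genes of chemokine receptor signalling, 20 were higher and 4 lower in brush than in EpCAM cells, with a median log2 fold change of 1.64. Pik3r5, a regulatory subunit of the G protein-driven phosphoinositide 3-kinase, was at 869 ± 188 CPM in brush cells and 0.566 ± 1.03 in EpCAM cells (10.93 ± 0.73, edgeR adjusted p = 8.80e-11). Tiam1, an activator of Rac, and Gng5, a G protein gamma subunit, were lower (-2.93 ± 0.35 and -2.10 ± 0.49). These signalling genes serve many receptors besides those for chemokines, and some are leukocyte genes as well: Pik3r5 was at 87.5 CPM in CD45 cells, below the brush level.

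Of the 23 genes of NF-kappaB regulation, 1 was higher and 7 were lower in brush cells (median log2 fold change -0.35), a share called that is below the 40.3% over all genes. Nfkbiz, an inducible cofactor, was at 55.3 ± 12.6 CPM in brush and 380 ± 111 in EpCAM cells (-2.78 ± 0.28, edgeR adjusted p = 3.50e-08), and Myd88, the adaptor of interleukin-1 and Toll-like receptors, was lower as well (-1.81 ± 0.39). Tnip1, an inhibitor of the pathway, was higher (1.24 ± 0.23). Of 21 tested receptors whose signals induce epithelial chemokines, 4 were higher and 9 lower (median -0.49), beside 18.3% and 22.0% over all genes. The interleukin-4 and interleukin-13 receptor chains Il4ra (229 and 30.5 CPM, 2.91 ± 0.30) and Il13ra1 (369 and 179 CPM, 1.05 ± 0.41) were higher, and Il1r1 (1.39 and 26.5 CPM, -4.27 ± 0.52) and the oncostatin M receptor Osmr (2.66 and 44.6 CPM, -4.08 ± 0.61) were lower.

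Of 15 tested proteases and scaffolds that cut, shed or hold chemokines, 5 were lower in brush cells and the other 10 did not pass the test (median -0.62), again a share below the 40.3% over all genes. Of the 5, those with a mean of at least 20 CPM in brush or EpCAM cells were the heparan sulfate carrier Sdc1 (14.7 ± 7.24 CPM in brush and 416 ± 177 in EpCAM cells, -4.77 ± 0.51) and the membrane protease Mmp14 (14.3 and 35.2 CPM, -1.30 ± 0.35). Mmp2 (-3.47 ± 0.66), Sdc3 (-3.43 ± 0.65) and Ext1 (-2.55 ± 0.45) were below that level in both. Of 9 tested chemokine genes and relatives outside the naming rule, 2 were higher and 1 lower (median 0.65), also a share below that over all genes. Cmtm8 (202 ± 91.9 and 59.5 ± 41.2 CPM, 1.76 ± 0.37) and Cmtm4 (26.1 ± 6.81 and 9.69 ± 4.23 CPM, 1.41 ± 0.33), which are MARVEL-domain proteins of a chemokine-like factor family, were higher.

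The 19 members that did not pass the filter had few counts. Ccl19, Ccl21a, Ccl21b, Ccl21c and Ccl27b had 0 counts in all 18 libraries, and reads of the near-identical Ccl21 and Ccl27 copies could have been lost or moved by the counting. Ackr1, Ackr2, Ccr3, Cxcr1 and Xcl1 had counts only in CD45 cells (7, 25, 82, 8 and 106). Ccl1, Cxcl9, Ccr4 and Ccr10 had 34, 84, 153 and 14 counts in CD45 cells and at most 4 in either epithelial group. Cxcl3 had 2 counts in brush cells, 14 in EpCAM cells and 53 in CD45 cells, and Cxcl14 had 0, 13 and 7. Cxcl11, named for an interferon-induced ligand of CXCR3 and ACKR3, is annotated as a polymorphic pseudogene in GENCODE vM21. It had 28 counts in brush cells, 3 in EpCAM cells and 13 in CD45 cells, the brush counts coming from only 2 of the 7 libraries. Ccl11 and Ccl26 had 3 counts or fewer in any group. Of the tested members, the thymic receptor Ccr9 was at 1.23, 1.91 and 14.8 CPM in brush, EpCAM and CD45 cells.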

How the data were processed

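The deposited table of raw read counts per gene symbol was made by the authors, and the deposited RSEM tables give estimated counts and TPM per library, per the file headers. The submitters' processing notes name STAR 2.4.2a, RSEM 1.2.21, Picard, featureCounts and DESeq2 with mm10. Annotation and strand use were not given in the sources used here. Counts were used as deposited, and the deposited normalized table was not used here. Levels are CPM after TMM scaling, as mean ± SD, and TPM served only to compare genes. All 18 libraries entered 1 edgeR 4.0.16 quasi-likelihood fit (R 4.3.3) with no covariate, after filterByExpr (13418 genes tested, 12909 removed), with Benjamini-Hochberg adjustment over all genes tested. Group totals under 4 counts are given as ratios with exact 95% intervals, and 0 counts as a limit of 3 counts. That limit leaves out the counting error of the higher group. The script was tested on simulated data for brush against EpCAM cells. It recovered 27 of 86 changes of 2-fold and 109 of 110 changes of 4-fold, so many 2-fold changes can be missed. It also called 9 unchanged genes. Recovery at the few counts and wide spread of many members was not tested, so larger changes of these can be missed too. Ccl5, for example, was not called at a ratio of 7.19 of brush over EpCAM cells (edgeR adjusted p = 0.105). No 2 libraries were duplicates by a chi-square test.

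The named members were those called in brush against EpCAM cells and those with a group mean of at least 20 CPM, and from each list the called genes with the 2 largest rises and falls at that level. The members, lists and rule were chosen with earlier results of these data known. Alternatives were RLE scaling, DESeq2 1.42.0, limma 3.58.1 (voom), 3 other choices of genes or filter, RSEM estimated counts (rounded, summed by symbol), fits of 2 groups, left-out libraries and a replicate block. Promoters came from RefSeq (GRCm38.p6) and gene positions and overlaps from GENCODE vM21. Values of 1 member and 1 gene of the lists are not reported here.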

Additional observations from a re-analysis of the deposited data

Results flagged for a closer look

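Of 62 sets of library values of the named members (1 gene in 1 group with a mean of at least 1 CPM), 13 held a library whose gap to the nearest other library was above Dixon's 95% critical value. Chance flags about 1 in 20 such groups, and genes of a library are not independent.

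EpCAM library 5 accounted for 5 of the 13. Ccl20 was at 202 CPM there, beside 11.5 to 45.3 in the other EpCAM libraries, Cxcl17 at 241 (30.0 to 113), Cxcl1 at 21.6 (4.31 to 7.99) and Cxcl10 at 23.1 (1.89 to 7.99). Ackr3 was low in it, at 20.7 CPM beside 75.7 to 110.

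Brush library 4, the brush library with the fewest counts, accounted for 3. Ccl20 was at 43.4 CPM from 23 counts, beside 0 to 15.4 in the other brush libraries, Ccl17 at 9.43 from 5 counts (0.427 to 1.27) and Ackr3 at 3.77 from 2 counts (16.9 to 26.5).

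The other 5 fell in 5 libraries. Ccl4 was at 2430 CPM in CD45 library 1 (159 to 423 in the others) and Ccl7 at 599 in CD45 library 4 (77.0 to 154). Cx3cl1 was at 4.06 in brush library 3 (11.4 to 16.5), Cxcl10 at 13.1 in brush library 1 (0 to 4.35) and Cxcl5 at 52.5 in EpCAM library 1 (1.48 to 21).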

How the results depend on the processing

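No called result changed direction under any alternative run. Fitting only the brush and EpCAM libraries gave 2 higher (Ackr4 and Cxcl12) and 6 lower members, from the 11 members that passed the filter there. Leaving out each library in turn gave 5 to 6 higher and 8 to 11 lower members for brush against EpCAM, 2 to 3 and 31 to 32 for brush against CD45, and 6 to 8 and 31 to 32 for EpCAM against CD45. DESeq2 gave 6 and 9, 3 and 31, and 8 and 31, and without the filter on low counts 41 and 42 members were lower than CD45 cells. With the replicate number as a block, the counts were 6 and 12, 2 and 31, and 7 and 31: the block added Ccl5, Cxcl10 and Cxcr5 and removed Xcr1 in brush against EpCAM, and it removed Ccl28 and Cxcl13 from the other comparisons. Deviations of same-numbered brush and EpCAM libraries correlated by -0.0691 to 0.235, and those of differently numbered ones by -0.381 to 0.499. This check cannot show whether same-numbered libraries came from the same mice. Members at 3 counts or fewer in a group, and brush library 4 and CD45 library 1 with the fewest counts, limit what could be detected: a member at 0 in a group was not detectable at this depth.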
